A study of Mus musculus with 5 samples.

Results

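Hedgehog pathway genes were followed in whole pancreas of newborn mice that lacked Pdx1 in exocrine cells. The 9 genes were taken by name, as the probe sets whose annotation gives one of these symbols: the ligands Shh, Ihh and Dhh, the receptor Ptch1, the signal transducer Smo, the transcription factors Gli1, Gli2 and Gli3, and the ligand-binding inhibitor Hhip. Each was read by 1 probe set, and these are 9 of the 19938 genes that could be named on the array. Pancreata of postnatal day 1 came from 3 Pdx1cKO mice, in which an Elastase-Cre transgene recombines loxP-flanked Pdx1, and from 2 control mice that the labels describe as not recombined. Which Cre and loxP alleles the controls carried, the strain and the sex are not stated in the labels or the paper's methods. The elastase promoter drives Cre in exocrine cells. The paper describes Pdx1 inactivation as specific to exocrine tissue, and proximal ducts as not recombined. Each sample was read on a Mouse Gene 1.0 ST array of its own, and values are normalised intensities on a linear scale without detection calls, so whether a dim gene lay above background is unknown.

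In Hedgehog signalling a secreted ligand binds the receptor Ptch1, which then releases Smo, and Smo turns the Gli factors into transcriptional activators. Ptch1, Hhip and Gli1 are themselves transcribed in response to the pathway, so that their RNA is commonly read as a measure of signalling. In the embryonic foregut Shh and Ihh are made by stomach and intestinal epithelium and act on the surrounding mesenchyme, whereas Shh is kept out of the pancreatic bud. Dhh is best known from Schwann cells, endothelium and the testis.

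The labelled tissue was present on all arrays, but the arrays also differed in transcripts of other tissues. The summed intensity of 8 acinar markers was 9698 to 15958 in Pdx1cKO pancreata and 37879 to 52590 in controls, and that of 6 islet markers 3748 to 4790 and 7440 to 8116. The sum of 7 liver markers was 12688 to 30853 in Pdx1cKO pancreata and 4341 to 4636 in controls. Control 2 stood apart in gut transcripts: 11 stomach markers summed to 14611 there, against 559 to 757 on the other 4 arrays, and 11 intestinal markers to 2665, against 464 to 726. Xist was at 622 and 349 in Pdx1cKO mice 1 and 2 and at 33.5 to 53.4 on the other arrays, so that sex was not balanced between the genotypes. Pdx1 itself was at 48.4, 48.4 and 42.9 in Pdx1cKO pancreata, against 67.9 and 112.7 in controls. Fewer cells of a type and less RNA per cell cannot be told apart in whole-tissue RNA.

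Windows of 250 bases before the annotated start were found in the RefSeq promoter table (GRCm38.p6) for 7 of the 9 genes. Shh and Gli1 were not matched. The windows of Ihh, the gene that differed most on a single array, and of Dhh and Hhip, which lay higher on all 3 Pdx1cKO arrays than on both control arrays, are shown 5′ to 3′ on the gene's strand. Capitals mark the letters GGGCGG or their reverse complement, a GC box.
Ihh (chr1:74951673-74951922, minus strand): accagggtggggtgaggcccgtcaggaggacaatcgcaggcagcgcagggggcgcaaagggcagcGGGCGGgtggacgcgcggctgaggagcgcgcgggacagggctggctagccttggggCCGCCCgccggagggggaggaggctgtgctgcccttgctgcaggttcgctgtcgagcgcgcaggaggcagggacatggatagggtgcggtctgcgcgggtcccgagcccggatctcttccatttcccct
Dhh (chr15:98898541-98898790, minus strand): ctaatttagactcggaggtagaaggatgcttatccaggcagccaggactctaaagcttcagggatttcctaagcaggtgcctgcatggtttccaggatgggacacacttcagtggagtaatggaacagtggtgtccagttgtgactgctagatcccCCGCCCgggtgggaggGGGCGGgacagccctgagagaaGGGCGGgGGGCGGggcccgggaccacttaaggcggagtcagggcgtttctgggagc
Hhip (chr8:80058009-80058258, minus strand): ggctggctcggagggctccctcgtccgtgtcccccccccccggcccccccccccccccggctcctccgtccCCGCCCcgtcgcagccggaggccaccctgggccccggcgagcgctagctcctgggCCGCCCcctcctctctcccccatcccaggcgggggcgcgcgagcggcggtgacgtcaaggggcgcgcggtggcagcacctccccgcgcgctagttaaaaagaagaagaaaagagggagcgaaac
A GC box was held by 6 of the 7 windows, all but that of Smo, and by 32.7% of the 32851 promoter windows of the table. The 7 windows were 59.6% to 78.4% G or C, against a median of 52.4% over all windows. The part of base composition in the counts of these and the following letters was not tested. The letters GACCACCCA, the consensus bound by Gli proteins, were in 0 of the 7 windows on either strand and in 0.225% of all windows. TATAAA (12.4% of all windows), AGATAA (9.99%), TGTTTAC (3.17%) and TTTATGG (2.43%), the core letters of TATA, GATA, FOXA and CDX sites, were also in 0 of the 7.

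The ligands divided into a pair that was high in control 2 and 1 that was higher in Pdx1cKO. Shh, the ligand of foregut endoderm, was at 53.7 in each of the 3 Pdx1cKO pancreata, against 54.1 in control 1 and 92.3 in control 2. The 3 identical values and control 1 thus lay within 0.011 on the log2 scale, and only control 2 stood apart. Its log2 fold change was -0.40 (standard error 0.260, 95% confidence interval -1.14 to 0.35, limma adjusted p = 0.515).

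Ihh, the ligand of intestinal epithelium and growth cartilage, had intensities of 69.5, 68.6 and 65.3 in Pdx1cKO pancreata and of 69.5 and 158 in controls 1 and 2. Pdx1cKO 1 and control 1 were tied, so the groups overlapped. The log2 fold change was -0.63 (standard error 0.401, interval -1.78 to 0.52, limma adjusted p = 0.515). Dhh, the ligand of Schwann cells, was at 85.1, 85.1 and 98.1 in Pdx1cKO pancreata, against 76.0 and 66.2 in controls. All 3 Pdx1cKO values lay above both control values, by a log2 fold change of 0.33, or 1.26-fold (standard error 0.104, interval 0.03 to 0.63). It had the smallest unadjusted p of the 9 genes and did not pass after adjustment over all genes (limma adjusted p = 0.435).

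**Figure D1:**
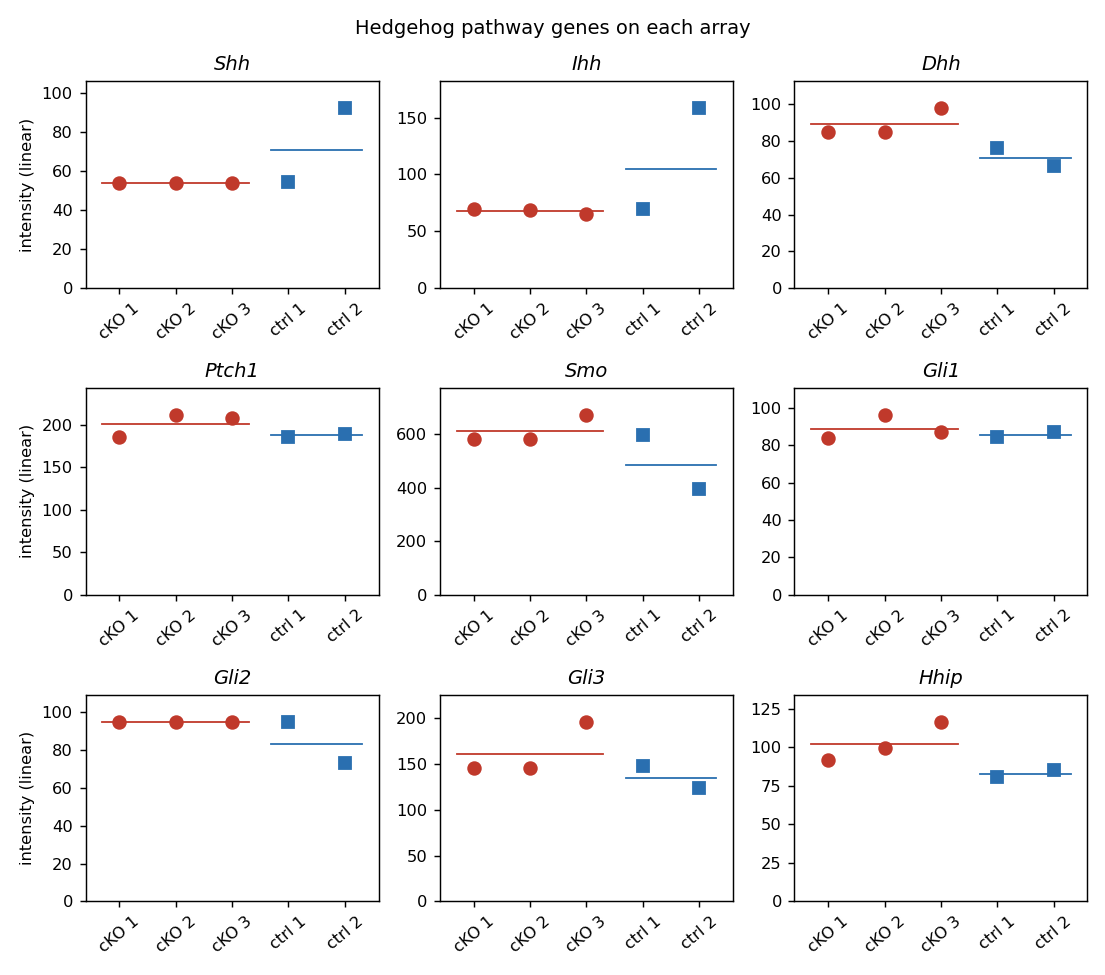
Intensity on a linear axis of each Hedgehog pathway gene on the 5 arrays (red circles, Pdx1cKO mice 1 to 3; blue squares, controls 1 and 2; lines, geometric mean of each group). Shh and Ihh are high in control 2 only, at 92.3 and 158, and Dhh and Hhip lie higher on all 3 Pdx1cKO arrays than on both control arrays.

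Receptor, transducer and inhibitor varied less than Ihh. Ptch1, which holds Smo inactive until a ligand binds, was at 185, 211 and 208 in Pdx1cKO pancreata and at 186 and 189 in controls. Pdx1cKO 1 lay below both controls and the other two above them, for a log2 fold change of 0.10 (interval -0.11 to 0.31, limma adjusted p = 0.515). Smo, the membrane protein that carries the signal inward, was at 583, 582 and 673 in Pdx1cKO pancreata, against 597 and 397 in controls. Control 1 lay within the Pdx1cKO range and control 2 below every other array. The log2 fold change of Smo was 0.33 (interval -0.29 to 0.95, limma adjusted p = 0.515).

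Hhip, a membrane protein that binds and sequesters the ligands, had intensities of 91.6, 99.6 and 116.8 in Pdx1cKO pancreata, against 80.6 and 85.4 in controls. The groups did not overlap, and the lowest Pdx1cKO value and the higher control were close. The log2 fold change was 0.30, or 1.23-fold (standard error 0.124, interval -0.06 to 0.66, limma adjusted p = 0.515). Of the pathway's other response genes, Gli1 was at 84.2, 96.4 and 86.9 in Pdx1cKO pancreata and at 84.3 and 86.9 in controls. Its interval was narrow, -0.15 to 0.26 around a log2 fold change of 0.06 (limma adjusted p = 0.681).

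Gli2, the main activator of the family, was at 94.8 in all 3 Pdx1cKO pancreata, against 94.8 in control 1 and 73.0 in control 2. A single array therefore made its log2 fold change of 0.19 (interval -0.18 to 0.56, limma adjusted p = 0.515). Gli3, which acts mostly as a repressor, was at 146, 146 and 196 in Pdx1cKO pancreata and at 148 and 123 in controls. Pdx1cKO 3 was highest and control 2 lowest, and control 1 lay between the Pdx1cKO values. Its log2 fold change was 0.25 (interval -0.30 to 0.80, limma adjusted p = 0.524).

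Over the genotype comparison, 0 of the 9 genes passed at an adjusted p of 0.05 in limma, as did 0.0% of all 19938 genes. By the methods' t-test, adjusted in the same way, 0 of the 9 and 10 of all genes passed. At an unadjusted limma p under 0.05 there was 1 of the 9 genes, Dhh, which was higher. Of all genes 5.29% were higher and 5.04% lower by that measure, 10.3% together. Groups that did not overlap were found for Dhh and Hhip, higher in Pdx1cKO, where 12.0% of all genes did so, and for Shh, lower in Pdx1cKO, where 11.7% of all genes did so. For Shh the gap was that between 53.7 and 54.1. The median absolute log2 fold change was 0.30 over the 9 genes and 0.07 over all genes. Against control 1 alone it was 0.08 over the 9 genes and 0.07 over all genes, so the larger value depended on control 2. An exact permutation test of 2 against 3 arrays allows no p below 0.1, which Shh and Dhh reached (two-sided), and Hhip and Ihh had p = 0.2 in the same exact test.

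**Figure D2:**
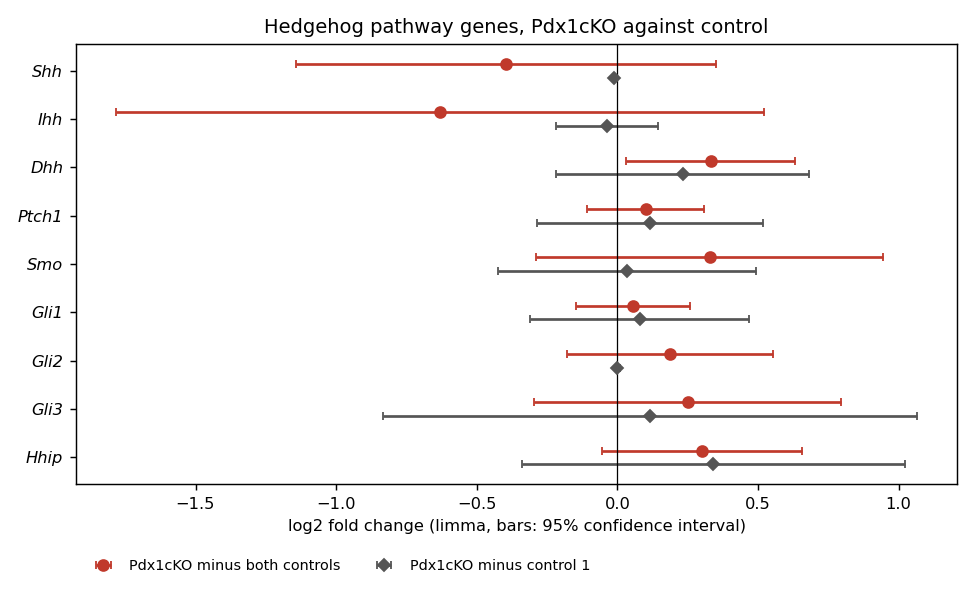
Log2 fold change of each gene with its 95% confidence interval from limma, for Pdx1cKO minus both controls (red circles) and Pdx1cKO minus control 1 alone (grey diamonds). Shh, Ihh, Smo, Gli2, Gli3 and Dhh lie nearer 0 when control 2 is left out, with Dhh at 0.23, and Hhip lies at 0.34.

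Control 2 was set against the other 4 arrays as a description, since 1 array has no replicate. Ihh was 2.32-fold above the mean of the others there (1.22 on the log2 scale), and the other 4 arrays spanned 0.09. Shh was 1.72-fold above them (0.78 on the log2 scale), and the other 4 spanned 0.011. Ihh lay at least 1 log2 above every other array, as did 1.2% of all genes, and control 2 was the highest array for 2 of the 9 genes, against 22.1% of all genes. The stomach list, with 11 of 11 measured markers highest in control 2, and the intestinal list, with 10 of 11, moved with these ligands. At least 1 log2 above every other array were 9 of the stomach and 4 of the intestinal markers. The intestinal markers Cdx1 and Sis were highest by only 0.02 and 0.03 on the log2 scale. Of the stomach markers Gkn2 was at 3014 in control 2, against 25.1 to 26.4 on the other arrays, and Tff1 at 4029, against 48.2 to 56.2. Of the intestinal markers Alpi, an alkaline phosphatase of enterocytes, was at 1132, against 35.6 to 59.3, whereas Cdx2, the intestinal homeobox gene, was at 36.6 on all 5 arrays. Of 4 measured duct markers 3 were highest in control 2 as well, and the list had a median of 0.44 from the mean of the other arrays. Krt19 was at 2516 in control 2, against 814 to 949 on the other arrays. Sox9 was at 229 in control 2 and at 138 to 262 on the others. The part of gut or duct tissue in the Shh and Ihh values was not tested.

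Dhh and several genes of the receiving side ran the other way on that array. Control 2 was the lowest array for Dhh, Smo, Gli2 and Gli3, 4 of the 9 genes, against 25.9% of all genes. On the log2 scale Smo was -0.62 from the mean of the other 4 arrays, Gli2 -0.38, Dhh -0.37 and Gli3 -0.35. Ptch1 and Gli1, the response genes, were at -0.06 and -0.01, and Hhip was at -0.17. All 8 mesenchymal markers, among them Pdgfra and Pdgfrb, were lowest in control 2 too, with a median of -0.56. Lum and Pdgfrb were low in control 1 as well. Lum was at 589 in control 1 and 586 in control 2, against 819 to 1043 in Pdx1cKO. Pdgfrb was at 226 and 177 in controls 1 and 2, against 288 to 360 in Pdx1cKO. By contrast, 6 of 7 smooth muscle markers were highest in control 2, with a median of 0.50. All 5 endothelial markers were lowest in control 2, with a median of -0.42. Of 7 liver markers 4 were, with a median of -2.04. Liver markers were low in both controls, at sums of 4341 in control 1 and 4636 in control 2. That median therefore reflects the higher Pdx1cKO values, with sums of 12688 to 30853, and is not particular to control 2. The part of these tissues in the values was not tested.

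**Figure D3:**
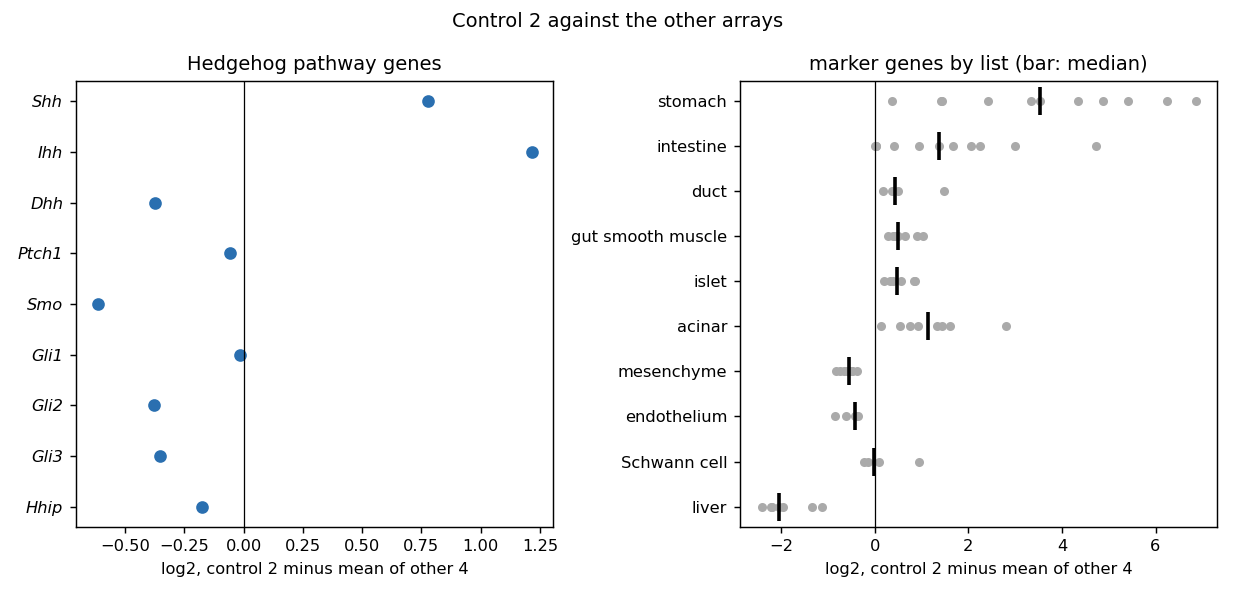
Log2 intensity in control 2 minus the mean of the other 4 arrays, for the Hedgehog pathway genes (left, blue) and for the genes of 10 marker lists (right, grey points, with the median as a black bar; the axes differ in scale). Ihh and Shh lie right of 0, as do the medians of the stomach, intestinal, duct, smooth muscle, islet and acinar lists. Acinar and islet markers were higher on both control arrays than on all Pdx1cKO arrays. Smo, Gli2, Gli3 and Dhh lie left of 0, as do the mesenchymal and endothelial lists. The liver list also lies left of 0, but liver markers were low in control 1 too.

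The 5 genes whose pattern over the 5 arrays was nearest to that of Ihh were Capn9, Ly6m, Tmc5, Tmem189 and Ern2. Likeness was the root mean square difference of log2 values centred on their mean, taken among 1328 genes that spanned 1 log2 or more, and it was 0.018 to 0.033 for these 5. Capn9, a calpain of the digestive tract, was at 81.7 in control 2, against 32.8 to 35.8 on the other arrays. Ern2, the stress sensor kinase of gut epithelium, was at 128 in control 2, against 53.8 to 59.6. Ly6m was at 71.8 there, against 28.6 to 31.5, Tmc5 at 78.5, against 34.5 to 35.5, and Tmem189 at 1429, against 581 to 617. These 5 genes were picked for likeness to Ihh, so their high value in control 2 follows from the choice. None of the other 8 Hedgehog genes spanned 1 log2.

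Pdx1cKO was then compared with control 1 alone, the control with the lower gut markers. Some gut markers still differed there: the intestinal retinol-binding protein gene Rbp2 was at 336, 235 and 172 in Pdx1cKO pancreata, against 45.4 in control 1, and at 502 in control 2. With 1 control the spread is taken from the Pdx1cKO mice only, and the control is assumed to share it. In this comparison 0 of the 9 genes passed in limma, although 15.4% of all genes did, and 1 of the 9, Shh, had an unadjusted p under 0.05. All 3 Pdx1cKO values of Shh lay below control 1, as in 33.3% of all genes. The log2 fold change of Shh was -0.01 (limma adjusted p = 0.108) with a standard error of 0.00215, which rests on 3 identical values. Ihh was at -0.04 (interval -0.22 to 0.15, limma adjusted p = 0.839) and Smo at 0.03 (interval -0.42 to 0.49). The 4 values of Gli2 were identical.

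Dhh and Hhip were the 2 genes for which all 3 Pdx1cKO values lay above control 1, as in 25.5% of all genes. Their log2 fold changes against control 1 were 0.23 for Dhh (interval -0.22 to 0.68) and 0.34 for Hhip (interval -0.34 to 1.02), with limma adjusted p = 0.418 and 0.430. Both genes were highest in Pdx1cKO 3. Liver markers were higher in all Pdx1cKO pancreata than in controls, at sums of 25795, 30853 and 12688 in Pdx1cKO mice 1, 2 and 3. Of 4 measured Schwann cell markers Cdh19 lay higher in all Pdx1cKO pancreata than in both controls and Erbb3 lower. Of all genes 12.0% lay higher and 11.7% lower in that way. The summed intensities of the 4 were 335 to 385 in Pdx1cKO and 390 to 554 in controls. Without Erbb3, left out after the values were seen, the sums were 172 to 177 in Pdx1cKO and 148 to 160 in controls. Foxd3 was at 62.9 in control 1 and in Pdx1cKO 1 and 3, at 68.1 in Pdx1cKO 2 and at 58.4 in control 2. Sox10, the Schwann cell transcription factor, had a log2 fold change of 0.21 against both controls (limma adjusted p = 0.515). Against control 1 alone it was 0.41, and control 2 was tied with Pdx1cKO 1 and 3. Of 5 endothelial markers 3 lay higher in all Pdx1cKO pancreata than in both controls, where 12.0% of all genes did so. The sums of the 5 were 1545 to 1819 in Pdx1cKO and 1107 to 1435 in controls. The part of these cell types in the Dhh and Hhip values was not tested.

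Without control 1, which leaves control 2 as the only control, 3 of the 9 genes passed, against 17.0% of all genes. Shh fell by 0.78 on the log2 scale (limma adjusted p = 9.34e-04), Ihh fell by 1.22 (adjusted p = 0.00793 from limma), and Gli2 rose by 0.38 (limma adjusted p = 0.00106). Shh and Gli2 each had identical values in the 3 Pdx1cKO mice, as did 15.7% of all genes, which makes their spread 0.

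The rest of the pathway was read from 34 measured genes, listed by role. Of the 34 genes 0 passed in limma in either direction, and an unadjusted p under 0.05 was held by 2, Btrc, higher, and Foxl1, lower, a share below the 10.3% of all genes. Their median log2 fold change was 0.04, against -0.001 over all genes. Groups that did not overlap were held by 3 higher genes, Gpc3, Csnk1a1 and Btrc, and by 1 lower gene, Foxl1, and both shares were below the 12.0% and 11.7% of all genes that did so.

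Among genes of ligand release, Disp1, which frees the lipid-bound ligand from the cell, was at 372, 371 and 417 in Pdx1cKO pancreata, against 406 and 272 in controls. Hhat, the acyltransferase that palmitoylates the ligand, had a log2 fold change of 0.02. Of the co-receptors, Boc was at 336, 309 and 337 in Pdx1cKO pancreata, against 316 and 162 in controls. Gpc3, a glypican that competes for ligand, was at 2079, 2129 and 1975, against 1943 and 1017 in controls. For Disp1 and Boc control 1 lay within the range of the Pdx1cKO values, for Gpc3 just below it, and control 2 far below. The log2 fold changes of Boc and Gpc3 were 0.53 and 0.55 against both controls (limma adjusted p = 0.515 each) and 0.05 and 0.08 against control 1.

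Of the genes that control the Gli proteins, Btrc, a ubiquitin ligase subunit that directs Gli processing, was at 275, 288 and 275 in Pdx1cKO pancreata, against 256 and 246 in controls. It differed by 0.15 on the log2 scale (standard error 0.0327, limma adjusted p = 0.300). Csnk1a1, a kinase that phosphorylates Gli proteins and Smo, had 0.23, and the cilium genes Kif3a and Tulp3 had 0.23 and 0.08, with limma adjusted p = 0.515 for each.

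Of 9 target genes, mostly of mesenchyme, 1 lay lower in all 3 Pdx1cKO pancreata than in both controls, a share close to the 11.7% of all genes. Foxl1, a forkhead factor of the mesenchyme beneath gut epithelium, was at 42.9, 41.8 and 37.1 in Pdx1cKO pancreata, against 51.4 and 47.4 in controls. All 3 values lay below both controls, by -0.28 on the log2 scale (standard error 0.0849, limma adjusted p = 0.413). Foxf2, a related factor of visceral mesenchyme, was at 50.6, 68.0 and 89.5 in Pdx1cKO pancreata and at 88.5 and 105 in controls. Pdx1cKO 3 lay between the controls, and the log2 fold change was -0.52 (limma adjusted p = 0.515).

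Control 2 was the lowest array for 19 of the 34 genes and the highest for 3, against 25.9% and 22.1% of all genes. It was lowest for 4 of the 5 measured genes of reception, with a median of -0.76 on the log2 scale from the mean of the other arrays. Gas1, a co-receptor named here after its values were seen, was at 512 in control 2, against 832 to 928 on the other arrays. Lrp2, Ift122 and Ift52, also named after their values were seen, had log2 fold changes of -0.47, -0.18 and -0.30 against control 1 alone. Their Pdx1cKO values were tied or nearly so, which leaves that fit almost no spread. Ift122 was at 90.7, 90.3 and 90.7 in Pdx1cKO pancreata, and Ift52 at 136, 136 and 135. Lrp2 had 107 in each Pdx1cKO pancreas, against 149 and 78.5 in controls 1 and 2. For all 3 genes the Pdx1cKO values lay between those of the controls. Without control 1 the direction turned, and Lrp2, Ift122 and Ift52 were higher in Pdx1cKO, by 0.45, 0.07 and 0.09 on the log2 scale.

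**Figure D4:**
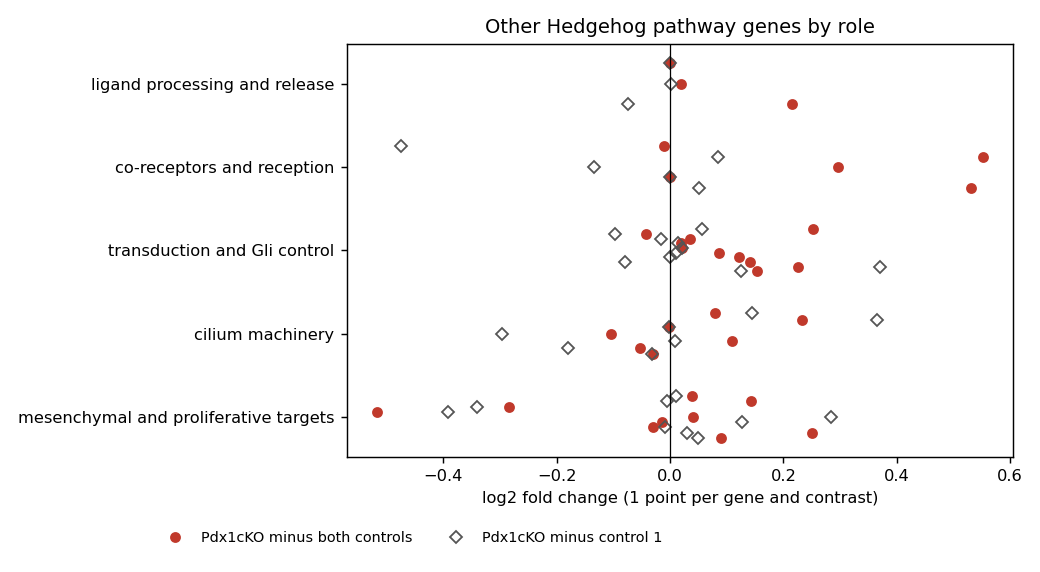
Log2 fold change of each of the 34 other Hedgehog pathway genes, by role, for Pdx1cKO minus both controls (red circles) and Pdx1cKO minus control 1 alone (open diamonds). Boc and Gpc3, the rightmost red circles at 0.53 and 0.55, lie near 0 against control 1, and Foxf2 lies leftmost of the red circles at -0.52.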

How the data were processed

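RNA of whole pancreas from 3 Pdx1cKO and 2 control mice was read on Mouse Gene 1.0 ST arrays. The authors used GeneSpring GX, and what they deposited is a normalised intensity, linear and not log-transformed, for each of 28853 probe sets, with medians of 61.0 to 61.9 per array. How they normalised and summarised probes is not stated in the sources used. In 67.7% of probe sets at least 2 arrays hold exactly the same value, which lowers the spread between samples. The number of arrays limits the precision. Nothing says whether a sample was 1 mouse or a pool beyond the paper's count of mice.

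Log2 was taken with no pseudocount. The 21789 probe sets with 1 symbol in the platform annotation were averaged into 19938 genes. Genotypes were compared with limma 3.58.1 (lmFit, eBayes) in R 4.3.3 over all genes, with Benjamini-Hochberg adjustment at 0.05, after a test on simulated data. The methods' t-test is the Student test that the paper names. Tables were handled in Python 3.11.15 with pandas 2.3.3.

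The genes and lists were chosen with earlier results of these data known. Named were the 9 genes, Pdx1, the 2 genes of smallest p per role list, and the 5 genes nearest to a member that spans 1 log2. The 2 markers of widest range were named for the stomach, intestinal, duct, mesenchymal and Schwann cell lists. For the smooth muscle, endothelial, acinar, islet and liver lists only counts, medians or sums are given. A Cdx2 value, Xist and others outside the rule were chosen after their values were seen. Alternatives were 2 filters on dim genes, scaling to a common median, quantile normalization, the brightest probe set, a pseudocount of 16, trended robust eBayes, array weights, the t-test, the replicate number as a block and each sample left out. A fit without genes identical in all Pdx1cKO arrays was chosen later, with the data known. No coordinates of the probe sets are given, since the values come with no named genome build.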

Additional observations from a re-analysis of the deposited data

How the results depend on the processing

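The count of Hedgehog genes that passed between Pdx1cKO and both controls was 0 under every alternative that kept all arrays, and 0 to 3 when samples were left out in turn (3 without control 1). All genes that passed numbered 10 by the methods' t-test and 0 to 3387 when samples were left out (3387 without control 1, 3067 without control 2), and other Hedgehog pathway genes 0 to 7 (7 without control 1, all higher, and 3 without control 2, all lower, with Lrp2 and Ift122 in both sets). Against control 1 alone, trended robust eBayes gave 1 Hedgehog gene (Shh), and leaving out a Pdx1cKO mouse gave 0 to 2, with 2 without Pdx1cKO 3 (Dhh at 0.16 and Gli3 at -0.03). In that comparison the genes that passed numbered 3067, with 1548 when only genes brighter than the median gene were tested, 1471 with quantile normalization and 463 without the genes identical in all Pdx1cKO arrays, an alternative chosen after seeing the data. Of the 3067 genes, 1322 had identical values in all Pdx1cKO mice. Where not stated, the cause was not tested.

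The log2 fold change of Gli1 was -0.00074 without Pdx1cKO 2, against 0.06 with all arrays, and no other of the 9 genes changed sign against both controls. With samples left out in turn Gli1 ran from -0.00074 to 0.10, Ihh ran from -1.22 to -0.04, Shh from -0.78 to -0.01, Smo from 0.03 to 0.62, Dhh from 0.23 to 0.43 and Hhip from 0.20 to 0.38. The excess of Ihh in control 2 was 1.05 on the log2 scale with a pseudocount of 16, and that of Shh 0.63. Same-numbered samples did not deviate together (r = 0.033 and -0.0030 over genes). With 2 controls this check rests only on the difference between control 1 and control 2. It therefore cannot decide whether the numbers pair the samples. With the replicate number as a block 0 of the 9 genes and 0 of all genes passed, and the log2 fold changes were 0.26 for Dhh, 0.20 for Hhip and -0.60 for Ihh.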
